A study of Mus musculus with 48 samples.

Results

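The immediate early response genes described here are *Fos*, *Fosb*, *Jun*, *Junb*, *Egr1*, *Nr4a1*, *Ier2*, *Ier3*, *Atf3* and *Btg2*. They were chosen by name, as every probe on the array that is not a control and carries 1 of these 10 gene names. The array holds 15 such probes among 56605, and the 10 genes are among 37074 gene names. A filter on dim probes left 11 of the 15 probes, and all 10 genes remained among the 20486 genes tested. The 4 probes left out were 2 for *Junb*, 1 for *Fosb* and 1 for *Ier2*, and each of these genes kept a brighter probe.

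Liver RNA was measured on 48 one-colour Agilent microarrays, 1 array for each male mouse and 6 for each of 8 groups. The groups combine 2 genotypes, 2 diets and 2 nutritional states. In p110α hep-/- mice (LKO in the labels), Cre recombinase driven by the albumin promoter deletes the floxed gene of p110α, the catalytic subunit of a phosphoinositide 3-kinase that acts below the insulin receptor, in hepatocytes. Their p110α hep+/+ littermates (LWT) carry the same floxed gene without Cre. The authors describe the deletion as specific to hepatocytes, and the other cells of the liver were not checked for it here. From 12 weeks of age, mice ate a control (CTRL) diet or a high-fat diet (HFD, 60% of calories from fat) for 12 weeks. They were then killed at Zeitgeber time 16 (ZT16), either fed or fasted for 24 h. Every one of the 6 slides carried all 8 groups once, and the labels name 2 washing batches of 3 slides.

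Immediate early genes are transcribed within minutes of a signal at the cell surface, without new protein synthesis, and their mRNAs are short-lived. Serum response factor with its partners and CREB, the factor that responds to cyclic AMP, are the classical activators of their promoters. Fos, Fosb, Jun and Junb proteins pair to form the transcription factor AP-1, and Atf3 belongs to the same class of leucine zipper proteins. Egr1 is a zinc finger factor and Nr4a1 an orphan nuclear receptor, while Ier2, Ier3 and Btg2 are small regulators of transcription, cell survival and cell division. In the liver these genes are known for their response to partial hepatectomy, to hormones of fasting, to inflammation and to the handling of tissue.

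The promoters of 6 members share a short motif of CREB and related factors, and those 6 are shown for that reason. RefSeq (GRCm38.p6) has an entry for 8 members in the promoter table used here, and *Egr1* and *Ier2* are named only. The motif TGACG, the core of the cyclic AMP response element, was searched on both strands in the 250 bases upstream of each start site. It lay in 6 of the 8 promoters, against 17.8% of 32851 start sites of all genes. Each line gives the last 180 bases before the start site, on the strand of the gene, with TGACG or its complement CGTCA in capitals.
*Fos*, chr12:85473710-85473889, plus strand: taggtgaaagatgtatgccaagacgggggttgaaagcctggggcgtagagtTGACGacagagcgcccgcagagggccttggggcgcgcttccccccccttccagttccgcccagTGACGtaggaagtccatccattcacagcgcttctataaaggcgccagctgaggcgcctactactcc
*Fosb*, chr7:19310046-19310225, minus strand: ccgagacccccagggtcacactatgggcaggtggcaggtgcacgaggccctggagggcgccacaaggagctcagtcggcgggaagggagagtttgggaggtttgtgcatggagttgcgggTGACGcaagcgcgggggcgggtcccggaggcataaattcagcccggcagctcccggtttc
*Junb*, chr8:84978749-84978928, minus strand: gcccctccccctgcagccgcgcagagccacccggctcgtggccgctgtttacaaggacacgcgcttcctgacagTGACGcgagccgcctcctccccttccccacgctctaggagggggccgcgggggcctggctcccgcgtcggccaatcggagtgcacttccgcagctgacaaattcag
*Nr4a1*, chr15:101266666-101266845, plus strand: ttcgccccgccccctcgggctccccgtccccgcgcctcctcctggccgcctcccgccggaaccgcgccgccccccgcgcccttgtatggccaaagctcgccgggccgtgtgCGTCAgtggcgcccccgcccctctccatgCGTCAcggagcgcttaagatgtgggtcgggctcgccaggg
*Atf3*, chr1:191183334-191183513, minus strand: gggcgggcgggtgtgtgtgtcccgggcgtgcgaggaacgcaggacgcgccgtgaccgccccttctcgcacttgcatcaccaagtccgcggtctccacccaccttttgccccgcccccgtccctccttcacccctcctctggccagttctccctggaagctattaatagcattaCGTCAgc
*Btg2*, chr1:134079156-134079335, minus strand: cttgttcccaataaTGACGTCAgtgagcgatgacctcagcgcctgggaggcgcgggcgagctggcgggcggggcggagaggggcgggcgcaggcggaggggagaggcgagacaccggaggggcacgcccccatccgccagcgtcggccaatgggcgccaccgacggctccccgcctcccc

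In *Btg2* the capitals from both strands overlap and spell the full element TGACGTCA, which begins 166 bases before the start site. That full element was found in 1 of the 8 promoters and in 1.5% of all start sites. *Nr4a1* held 4 matches in its 250 bases, 2 of them in the stretch shown, and the *Atf3* match begins 7 bases before the start site. The motif GCGNGGGCG of EGR proteins, searched the same way, lay in the promoters of *Fosb*, *Nr4a1* and *Btg2* and in 4.7% of all start sites. The AP-1 motif, TGACTCA or TGAGTCA, was found in 0 of the 8 promoters and in 4.5% of all, and the CArG box of serum response factor in 0 of the 8 and in 1.5% of all. Only exact matches within 250 bases were searched, without *Egr1* and *Ier2*. The search therefore cannot show that these genes lack such sites. A TATAAA stretch lay in the *Fos* promoter and in 12.4% of all. *Jun* and *Ier3* had no match to TGACG in this window.

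Levels below are normalized log2 signals, and 1 unit is a doubling. A difference between groups is the log2 fold change of limma, with a weight for each array. The weight is low where an array's values lie far from the fitted means of its group. A member is called when its Benjamini-Hochberg adjusted p over all probes that passed the filter is at most 0.05 and its fold change is above 1.5. Levels of different genes come from different probes and are not compared. Between 50.12% and 57.44% of probes were well above background on an array. In every group at least 5 of 6 arrays read each member's probe well above background. The probes of *Fosb* and *Ier3* were well above background on 45 and 47 of the 48 arrays, and those of the other members on all 48.

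The mouse labels were checked against other genes. *Fkbp5*, a glucocorticoid target, was higher after fasting in each of the 4 combinations of genotype and diet, by 0.59 to 2.26 on the log2 scale. *Pck1*, a key enzyme of gluconeogenesis, rose by 2.18 and 0.95 in p110α hep+/+ mice on CTRL diet and HFD and by 0.76 in p110α hep-/- mice on CTRL diet, while on HFD its change there was 0.47 (adjusted p = 0.13). *Ppargc1a*, a coactivator of fasting genes, rose by 0.93 and 0.83 in the 2 genotypes on CTRL diet and was not called on HFD, where p110α hep+/+ mice had a change of 0.43, under the fold threshold (adjusted p = 0.016), and p110α hep-/- mice 0.11 (adjusted p = 0.67). The probe of *Pik3ca*, the gene of p110α, read 12.58 to 13.45 in p110α hep+/+ mice and 13.02 to 13.71 in p110α hep-/- mice. It was not lower in p110α hep-/- mice, where it read higher by 0.39 in fed CTRL (adjusted p = 4.2e-04), 0.58 in fed HFD (adjusted p = 3.0e-07) and 0.25 in fasted HFD mice (adjusted p = 0.017), and by 0.08 in fasted CTRL mice (adjusted p = 0.53). The authors name the floxed exons, but where that probe lies relative to them was not worked out here. Whether it can show the deletion is therefore unknown. *Igfbp1*, a target of insulin signalling, was higher in p110α hep-/- mice by 3.27 in fed CTRL (adjusted p = 8.5e-07), 1.90 in fasted CTRL (adjusted p = 0.0011) and 1.65 in fasted HFD mice (adjusted p = 0.0053), with a difference of -0.04 in fed HFD mice (adjusted p = 0.96). Genotypes are given as labelled. All 6 hepatocyte markers, among them albumin (*Alb*), were well above background on all 48 arrays. One array stands apart for these genes. Replicate 3 of the fed p110α hep-/- mice on HFD had the lowest weight of all arrays (0.354). It also had the highest mean deviation of the 10 members from its group, 1.81 SD above it. A low weight does not tell a faulty array from a mouse that differed. This array had 54.31% of probes well above background and 0 saturated spots. Called results of its group are given below with and without this array, which was singled out after seeing the data.

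**Figure D1:**
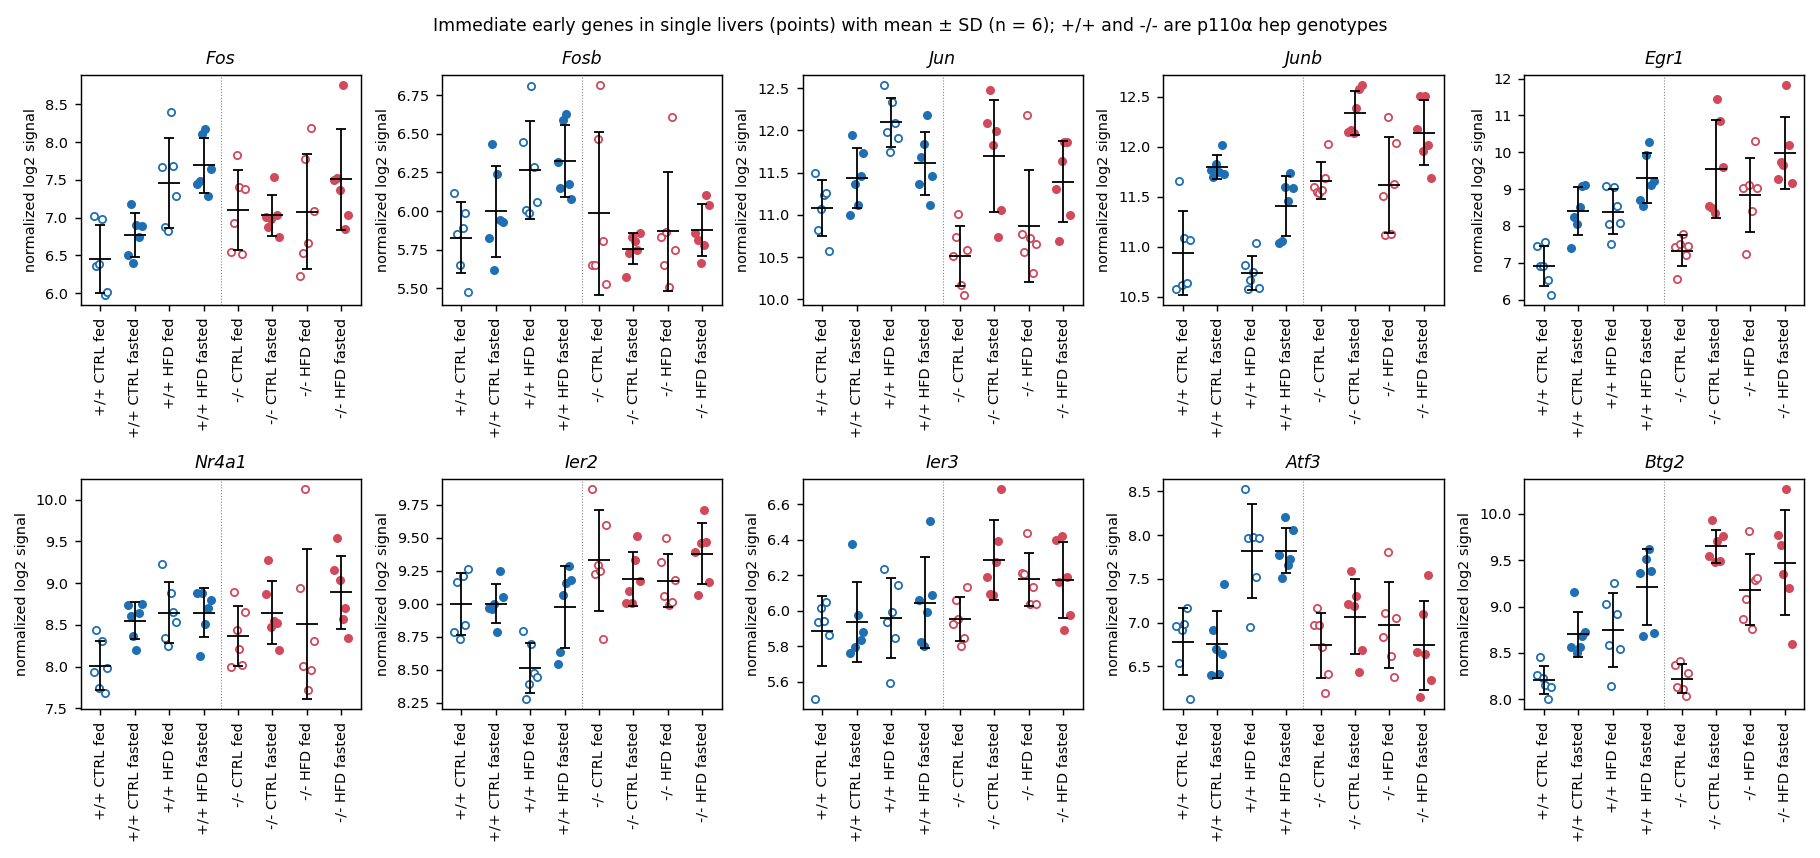
Level of each member (normalized log2 signal, vertical axis) in each liver, by group (horizontal axis, open points fed, filled points fasted, blue p110α hep+/+, red p110α hep-/-), with the mean and SD of 6 mice. *Atf3* has its highest means in the HFD groups of p110α hep+/+ mice, and the mean of *Junb* is higher in fasted than in fed mice within each genotype and diet.

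Group means spanned 3.06 log2 units for *Egr1*, the widest range of the 10 members, and 0.40 units for *Ier3*, the narrowest. *Egr1* was lowest in fed p110α hep+/+ mice on CTRL diet (mean 6.92 ± 0.54, SD, n = 6) and highest in fasted p110α hep-/- mice on HFD (9.98 ± 0.98). Fed p110α hep+/+ mice on CTRL diet also had the lowest mean of *Fos*, *Nr4a1*, *Ier3* and *Btg2*. *Junb* and *Ier2* were lowest in fed p110α hep+/+ mice on HFD, at 10.74 ± 0.17 and 8.51 ± 0.19. *Jun*, in contrast, was highest in that same group (12.10 ± 0.29) and lowest in fed p110α hep-/- mice on CTRL diet (10.51 ± 0.36). With the 8 groups of a gene put in order, 63 of the 70 gaps between neighbouring means were smaller than the SD between single mice of a group, which with 8 ordered means is a description and not a test.

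The first question was how a 24 h fast changes these genes. Fasting raised *Junb* in both genotypes and on both diets, and it raised *Egr1* on CTRL diet in both genotypes. *Nr4a1* was called in 2 of the 4 fasting comparisons, *Jun* in both of those in p110α hep-/- mice and *Btg2* in 1. *Fos*, *Fosb*, *Ier2*, *Ier3* and *Atf3* were called in none of them, and no member was called lower.

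In p110α hep+/+ mice on CTRL diet, 3 of the 10 members were called, all higher after the fast, where 5.45% of all genes tested were called in either direction. *Junb*, an AP-1 subunit that often acts against Jun (probe at chr8:87500843-87500902, mm9, minus strand), lay at 10.58, 10.85 and 11.66 (lowest, median, highest) in fed mice and at 11.70, 11.76 and 12.02 in fasted mice. The groups did not overlap, although 1 fed mouse came within 0.1 of the fasted ones. *Junb* rose by 0.96 (SE 0.15, 1.94-fold, adjusted p = 2.2e-06), and by 0.79 and 1.11 within washing batches 1 and 2. *Egr1* lay at 6.14, 6.91 and 7.57 in fed mice and at 7.39, 8.37 and 9.10 in fasted mice. Only the lowest fasted mouse fell inside the fed range. *Egr1* rose by 1.53 (SE 0.46, 2.90-fold, adjusted p = 0.0089), and by 1.02 and 2.07 within the batches, where it was not called in batch 1 (adjusted p = 0.21).

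*Nr4a1* (probe at chr15:101105071-101105130, mm9, plus strand) lay at 7.68, 7.95 and 8.43 in fed and at 8.20, 8.62 and 8.75 in fasted p110α hep+/+ mice on CTRL diet, with overlap. It rose by 0.59 (SE 0.21, 1.502-fold, adjusted p = 0.025), just above the fold threshold, and by 0.39 and 0.82 within the batches. The call was lost in 7 of 16 alternatives, with normexp, with no filter, with the stricter filter, with no washing correction, with the washing batch as a block, with no array weights and in batch 1 alone (adjusted p up to 0.48). It was also lost in 15 of the 48 fits that each left out 1 array, with changes of 0.53 to 0.65 over all 48. The arrays were replicates 1, 3 and 5 of fed and 1, 2, 5 and 6 of fasted p110α hep+/+ mice on CTRL diet, 2 and 5 of fasted p110α hep+/+ mice on HFD, 1 of fed and 6 of fasted p110α hep-/- mice on CTRL diet, and 3, 4 and 5 of fed and 4 of fasted p110α hep-/- mice on HFD. *Btg2* did not overlap between fed and fasted mice and was 0.49 higher with an adjusted p of 0.029, under the fold threshold. The summed level of 5 bile duct markers ran from 10.641 to 11.878 in fed and from 10.503 to 11.215 in fasted mice. That of 8 Kupffer cell and macrophage markers ran from 14.658 to 16.116 and from 14.419 to 15.051. Both overlapped, and the part of these cells was not tested.

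In p110α hep+/+ mice on HFD, 1 member was called, with 4.71% of all genes. *Junb* lay at 10.58, 10.71 and 11.04 in fed mice and at 11.03, 11.52 and 11.74 in fasted mice, so the ranges touched. It rose by 0.68 (SE 0.14, 1.597-fold, adjusted p = 3.1e-04), and by 0.45 and 0.81 within the batches, not called in batch 1 (adjusted p = 0.16). *Ier2*, a nuclear protein that co-regulates transcription, was 0.45 higher and *Btg2* 0.46 higher, with adjusted p of 0.0060 and 0.039, both under the fold threshold.

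In p110α hep-/- mice on CTRL diet, 4 members were called, all higher after the fast, with 7.07% of all genes. *Btg2*, which slows cell division (probe at chr1:135972094-135972153, mm9, minus strand), lay at 8.03, 8.20 and 8.41 in fed mice and at 9.48, 9.62 and 9.93 in fasted mice. A gap of more than 1 log2 unit separated the groups. *Btg2* rose by 1.40 (SE 0.18, 2.63-fold, adjusted p = 3.2e-08), and by 1.30 and 1.49 within the batches. Its second probe that passed the filter read a rise of 1.12 (adjusted p = 1.3e-06).

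In the same mice *Egr1* lay at 6.56, 7.44 and 7.78 when fed and at 8.35, 9.07 and 11.44 when fasted, without overlap. It rose by 2.06 (SE 0.47, 4.17-fold, adjusted p = 5.4e-04), the largest change of any member in any comparison, and by 1.19 and 2.82 within the batches. The 6 fasted mice were spread over more than 3 log2 units, and the rise was not called in batch 1 (adjusted p = 0.057). *Jun* (probe at chr4:94716928-94716987, mm9, minus strand) lay at 10.06, 10.54 and 11.01 in fed and at 10.73, 11.91 and 12.48 in fasted mice, with 1 fasted mouse inside the fed range. It rose by 1.27 (SE 0.23, 2.41-fold, adjusted p = 1.9e-05), and by 1.21 and 1.42 within the batches. *Junb* lay at 11.54, 11.58 and 12.03 in fed and at 12.14, 12.28 and 12.62 in fasted mice, without overlap, and rose by 0.64 (SE 0.15, 1.56-fold, adjusted p = 7.8e-04). Its rise was 0.56 and 0.73 within the batches. All 3 red cell markers tested were called lower in this comparison, and their summed level ran from 17.078 to 18.001 in fed and from 16.561 to 17.470 in fasted mice. Of 5 bile duct markers, 2 were called lower, and their summed level ran from 9.552 to 10.055 in fed and from 9.126 to 9.521 in fasted mice. The part of these in the members' values was not tested, and in whole liver fewer cells of a type and less RNA per cell cannot be told apart.

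In p110α hep-/- mice on HFD, 3 members were called, all higher after the fast, with 5.9% of all genes. *Junb* lay at 11.11, 11.57 and 12.30 in fed and at 11.69, 12.10 and 12.50 in fasted mice. It rose by 0.65 (SE 0.17, 1.57-fold, adjusted p = 0.0025), and by 0.92 and 0.24 within the batches. *Jun* rose by 0.67 (SE 0.25, 1.59-fold, adjusted p = 0.040), from 10.31, 10.69 and 12.18 to 10.69, 11.47 and 11.86. *Nr4a1* rose by 0.64 (SE 0.23, 1.56-fold, adjusted p = 0.033), from 7.72, 8.16 and 10.12 to 8.35, 8.87 and 9.54. In these 3 genes the ranges overlapped and the highest fed value was that of replicate 3, the array with the lowest weight. Leaving out the highest fed value is bound to lower the fed mean. The rises were then 0.73, 0.78 and 0.78, all called, which is not a test of the calls. With no array weights, 0 of the 3 were called. The calls of *Jun* and *Nr4a1* were also lost with no filter and in a fit of the compared groups alone, and that of *Jun* with no washing correction. In batch 2 alone 0 of the 3 were called, and in batch 1 alone *Nr4a1* was not.

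Other single arrays also decided these 3 calls. The *Junb* call was lost without replicate 2 of the fed or replicate 2 of the fasted p110α hep-/- mice on HFD (0.51 to 0.76 over the 48 fits). The *Jun* call was lost without replicates 2, 4, 5 or 6 of the fed or 3, 4 or 5 of the fasted mice of that genotype and diet (0.56 to 0.87). The *Nr4a1* call was lost without replicates 2, 4 or 5 of the fed or 1, 2 or 3 of the fasted mice (0.46 to 0.78). Without replicate 2 of the fed mice, 0 members were called. *Egr1* was 1.25 higher in these mice with an adjusted p of 0.066, and it was called with the replicate number as a block. Of 5 bile duct markers 1 was called lower, with a summed level of 9.812 to 10.145 in fed and 9.253 to 9.822 in fasted mice, and its part was not tested.

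**Figure D2:**
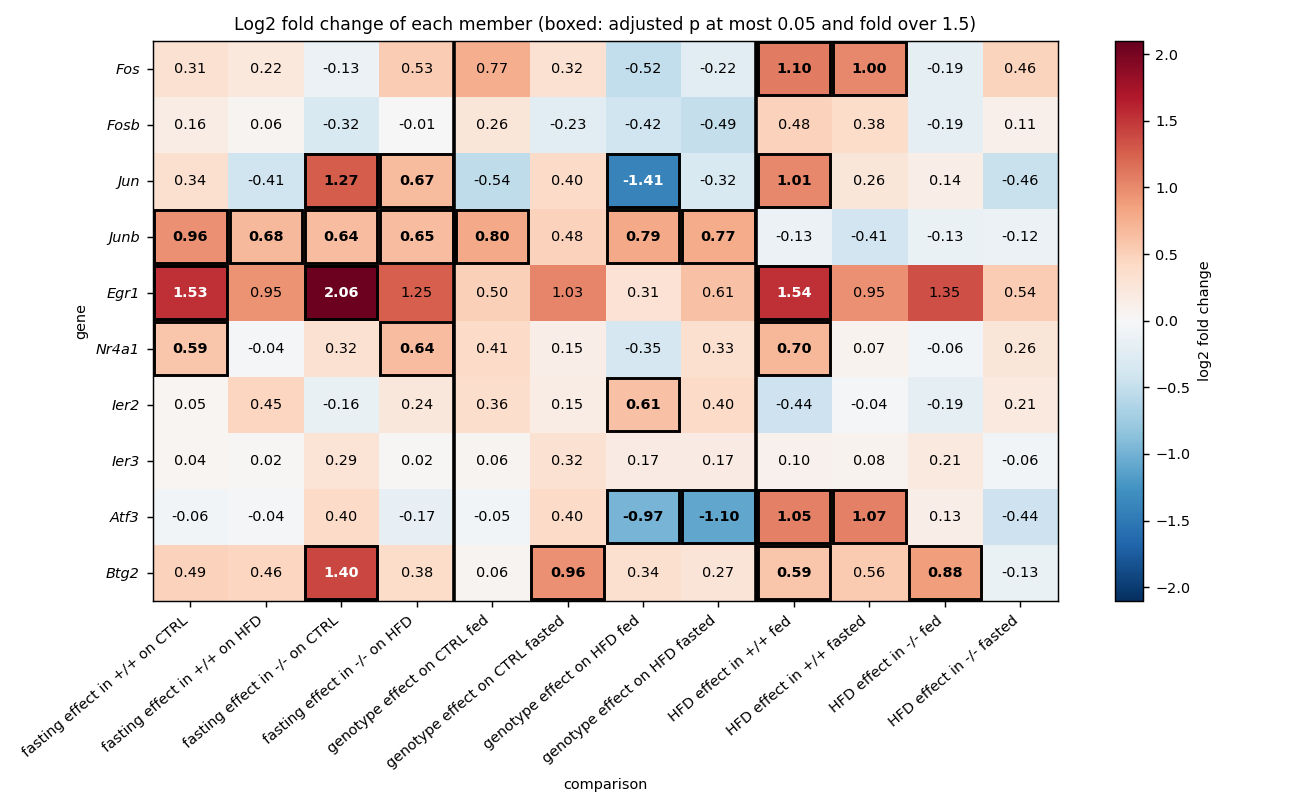
Log2 fold change (colour and number) of each member (rows) in the 12 comparisons between 2 groups (columns), fasted minus fed, p110α hep-/- minus p110α hep+/+ and HFD minus CTRL. Boxes mark members called by adjusted p and fold change, such as *Junb* in the 4 fasting columns and *Atf3* in the 2 diet columns of p110α hep+/+ mice.

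The second question was how loss of p110α in hepatocytes changes these genes at a fixed diet and state. *Junb* was called higher in p110α hep-/- mice in 3 of the 4 comparisons, and in the other, fasted mice on CTRL diet, it was 0.48 higher (adjusted p = 0.012), under the fold threshold. On HFD, *Atf3* was lower in p110α hep-/- mice in both states, and *Jun* was lower in the fed state. *Btg2* was higher in fasted p110α hep-/- mice on CTRL diet.

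In fed mice on CTRL diet, 1 member was called, with 3.72% of all genes. *Junb* lay at 10.58, 10.85 and 11.66 in p110α hep+/+ and at 11.54, 11.58 and 12.03 in p110α hep-/- mice, and 1 p110α hep+/+ mouse lay within the other group. It was 0.80 higher in p110α hep-/- mice (SE 0.15, 1.74-fold, adjusted p = 1.4e-04), and 0.66 and 0.86 higher within the batches, with an adjusted p of 0.052 in batch 1. *Ier2* was 0.36 higher with an adjusted p of 0.0499, under the fold threshold, and *Fos* was 0.77 higher with an adjusted p of 0.053. *Fos* lay at 5.98, 6.37 and 7.02 in p110α hep+/+ and at 6.52, 7.16 and 7.83 in p110α hep-/- mice. It was called with the processed signal, with the stricter filter and with the slide as a block.

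In fasted mice on CTRL diet, 1 member was called, with 3.24% of all genes. *Btg2* lay at 8.49, 8.62 and 9.16 in p110α hep+/+ and at 9.48, 9.62 and 9.93 in p110α hep-/- mice, without overlap. It was 0.96 higher in p110α hep-/- mice (SE 0.17, 1.95-fold, adjusted p = 4.6e-05), and 1.14 and 0.79 higher within the batches. *Junb* did not overlap between the genotypes either, and was 0.48 higher with an adjusted p of 0.012, under the fold threshold.

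In fed mice on HFD, 4 members were called, 2 higher and 2 lower in p110α hep-/- mice, with 6.24% of all genes. *Jun*, the central AP-1 subunit, lay at 11.75, 12.03 and 12.54 in p110α hep+/+ and at 10.31, 10.69 and 12.18 in p110α hep-/- mice. All p110α hep-/- mice but replicate 3 lay below all p110α hep+/+ mice. *Jun* was lower by 1.41, a log2 fold change of -1.41 (SE 0.23, 2.65-fold, adjusted p = 6.2e-06), -1.76 and -1.08 within the batches, and -1.52 without replicate 3. *Atf3*, a stress-responsive factor (probe at chr1:192994547-192994606, mm9, minus strand), lay at 6.94, 7.97 and 8.52 in p110α hep+/+ and at 6.38, 6.95 and 7.80 in p110α hep-/- mice, with overlap. Its log2 fold change was -0.97 (SE 0.22, 1.96-fold, adjusted p = 6.8e-04). It was -1.57 in batch 1 and -0.31 in batch 2, where it was not called (adjusted p = 0.57), and -1.03 without replicate 3.

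*Junb* and *Ier2* went the other way in fed mice on HFD. *Junb* lay at 10.58, 10.71 and 11.04 in p110α hep+/+ and at 11.11, 11.57 and 12.30 in p110α hep-/- mice, without overlap, and was 0.79 higher (SE 0.15, 1.74-fold, adjusted p = 7.4e-05), with 0.73 and 0.99 within the batches and 0.72 without replicate 3. *Ier2* (probe at chr8:87185211-87185245, mm9, minus strand) lay at 8.28, 8.46 and 8.79 in p110α hep+/+ and at 8.99, 9.12 and 9.50 in p110α hep-/- mice, without overlap. It was 0.61 higher (SE 0.13, 1.53-fold, adjusted p = 4.4e-04), and 0.47 and 0.74 higher within the batches. The change of *Ier2* fell under the fold threshold in 4 fits that left out 1 array, replicates 2 and 6 of p110α hep+/+ and 1 and 3 of p110α hep-/- mice (0.56 to 0.67 over the 48 fits).

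In fasted mice on HFD, 2 members were called, 1 in each direction, with 6.54% of all genes. *Junb* lay at 11.03, 11.52 and 11.74 in p110α hep+/+ and at 11.69, 12.10 and 12.50 in p110α hep-/- mice, with the ranges just touching. It was 0.77 higher (SE 0.16, 1.71-fold, adjusted p = 1.5e-04), with 1.21 and 0.41 within the batches, not called in batch 2 (adjusted p = 0.18). *Atf3* lay at 7.51, 7.75 and 8.20 in p110α hep+/+ and at 6.14, 6.65 and 7.55 in p110α hep-/- mice, where 1 mouse of each group met. Its log2 fold change was -1.098 (SE 0.23, 2.14-fold, adjusted p = 1.9e-04), with -0.99 and -1.09 within the batches. *Ier2* was 0.40 higher with an adjusted p of 0.022, under the fold threshold.

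Markers of other liver cells also differed between these groups. In fasted mice on HFD, 4 of 6 neutrophil markers were called lower in p110α hep-/- mice, and their summed level ran from 10.624 to 11.929 in p110α hep+/+ and from 9.884 to 10.291 in p110α hep-/- mice. The summed level of 5 bile duct markers ran from 10.503 to 12.398 over all p110α hep+/+ arrays and from 9.126 to 10.145 over all p110α hep-/- arrays. Between 1 and 2 of these 5 were called lower in each genotype comparison. The summed level of 8 Kupffer cell and macrophage markers ran from 14.419 to 16.259 in p110α hep+/+ and from 14.687 to 15.962 in p110α hep-/- mice. The summed level of 6 sinusoidal endothelial markers had a higher mean in p110α hep-/- mice in all 4 comparisons, as *Junb* did, with ranges that overlapped. It ran from 14.205 to 14.345 against 13.521 to 14.270 in fasted HFD, from 14.213 to 14.386 against 13.767 to 14.217 in fasted CTRL, from 14.172 to 14.429 against 13.777 to 14.196 in fed CTRL and from 14.041 to 14.232 against 13.719 to 14.125 in fed HFD mice. Of these 6 markers, 2 were called higher in fasted HFD mice, 0 in fasted CTRL mice in either direction, and 1 was called lower in fed mice on each diet. The neutrophil markers *S100a9*, *Mpo* and *Retnlg* were well above background on 48, 39 and 24 of 48 arrays. The part of these cells in the members' levels was not tested.

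The third question was how the HFD changes these genes in each genotype. In fed p110α hep+/+ mice, 6 of the 10 members were called, all higher on HFD, with 3.76% of all genes. They were *Fos*, *Jun*, *Egr1*, *Nr4a1*, *Atf3* and *Btg2*. In fed p110α hep-/- mice only *Btg2* was called, with 2.32% of all genes.

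*Jun* lay at 10.57, 11.15 and 11.50 on CTRL diet and at 11.75, 12.03 and 12.54 on HFD in fed p110α hep+/+ mice, without overlap. It rose by 1.01 (SE 0.22, 2.01-fold, adjusted p = 6.5e-04), and by 1.11 and 0.85 within the batches. *Fos*, the partner of Jun in AP-1 (probe at chr12:86818118-86818177, mm9, plus strand), lay at 5.98, 6.37 and 7.02 on CTRL diet and at 6.82, 7.48 and 8.40 on HFD. The ranges overlapped over 0.2 units, and *Fos* rose by 1.095 (SE 0.27, 2.14-fold, adjusted p = 0.0028), with 1.34 and 0.81 within the batches. *Atf3* lay at 6.13, 6.94 and 7.16 on CTRL diet and at 6.94, 7.97 and 8.52 on HFD. Only 1 HFD mouse fell in the CTRL range, and *Atf3* rose by 1.05 (SE 0.21, 2.07-fold, adjusted p = 2.4e-04), with 1.14 and 0.78 within the batches.

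*Egr1* rose by 1.54 in the same comparison (SE 0.45, 2.90-fold, adjusted p = 0.011), from 6.14, 6.91 and 7.57 on CTRL diet to 7.51, 8.31 and 9.08 on HFD. The ranges met at 1 mouse of each diet. *Nr4a1* rose by 0.70 (SE 0.20, 1.63-fold, adjusted p = 0.0091), from 7.68, 7.95 and 8.43 to 8.24, 8.59 and 9.23. *Btg2* rose by 0.59 (SE 0.17, 1.505-fold, adjusted p = 0.010), from 8.0, 8.19 and 8.46 to 8.14, 8.75 and 9.26. The *Btg2* call was lost without replicates 5 or 6 of the mice on CTRL diet or 1, 4 or 5 of those on HFD (0.44 to 0.67 over the 48 fits), and its second probe read 0.48. It was also lost in 9 of 16 alternatives, with the processed signal, normexp, no filter, a block for washing batch or for replicate number, a fit of the compared groups alone, the median over probes, unweighted arrays, and batch 2 alone (adjusted p up to 0.36). With unweighted arrays *Nr4a1* was lost as well, which left 4 calls. *Ier2*, in contrast, had a log2 fold change of -0.44 with an adjusted p of 0.010, under the fold threshold, and *Fosb* one of 0.48 with an adjusted p of 0.034.

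All 6 rises had the same sign in both washing batches. With 3 mice a group, 4 of the 6 were called in batch 1 alone and 0 in batch 2 alone, where the changes ran from 0.32 to 1.19. The 6 calls were the same without the array of lowest weight. Neutrophil markers moved in this comparison as well. Of 6 markers, 2 were called higher on HFD, and their summed level ran from 9.802 to 10.485 on CTRL diet and from 10.190 to 12.214 on HFD. The summed level of 5 bile duct markers ran from 10.641 to 11.878 on CTRL diet and from 11.311 to 12.398 on HFD. That of 6 stellate cell markers ran from 14.651 to 15.085 and from 14.796 to 15.571. The part of these cells in the rises was not tested.

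In fasted p110α hep+/+ mice, *Fos* and *Atf3* were called higher on HFD, 2 of the 10 members, with 2.81% of all genes. *Fos* lay at 6.40, 6.82 and 7.18 on CTRL diet and at 7.28, 7.57 and 8.18 on HFD, and *Atf3* at 6.40, 6.67 and 7.44 and at 7.51, 7.75 and 8.20. Neither gene overlapped between the diets. *Fos* rose by 1.00 (SE 0.28, 2.00-fold, adjusted p = 0.011), with 0.91 and 1.08 within the batches. *Atf3* rose by 1.07 (SE 0.21, 2.09-fold, adjusted p = 4.6e-04), with 1.22 and 0.86 within the batches. Here 4 of 6 neutrophil markers were called higher on HFD. Their summed level ran from 9.681 to 10.473 on CTRL diet and from 10.624 to 11.929 on HFD, without overlap. The summed level of 5 bile duct markers ran from 10.503 to 11.215 and from 11.176 to 11.878. That of 6 stellate cell markers ran from 14.553 to 15.101 and from 14.86 to 15.375. The part of these cells in the rises was not tested. *Btg2* was 0.56 higher with an adjusted p of 0.024, under the fold threshold.

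In fed p110α hep-/- mice, *Btg2* lay at 8.03, 8.20 and 8.41 on CTRL diet and at 8.75, 9.18 and 9.81 on HFD, without overlap. It rose by 0.88 (SE 0.19, 1.84-fold, adjusted p = 0.0012), by 0.67 and 1.20 within the batches, and by 0.83 without the array of lowest weight. The summed level of 6 neutrophil markers ran from 9.59 to 10.198 on CTRL diet and from 9.826 to 11.126 on HFD. That of 6 sinusoidal endothelial markers ran from 14.172 to 14.429 and from 14.041 to 14.232. Both overlapped between the diets, and the part of these cells was not tested. *Egr1* was 1.349 higher with an adjusted p of 0.071. In fasted p110α hep-/- mice, 0 members were called by limma, with 1.89% of all genes, and 0 had an unadjusted p under 0.05. Fitted changes there ran from -0.46 for *Jun* to 0.54 for *Egr1*.

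**Figure D3:**
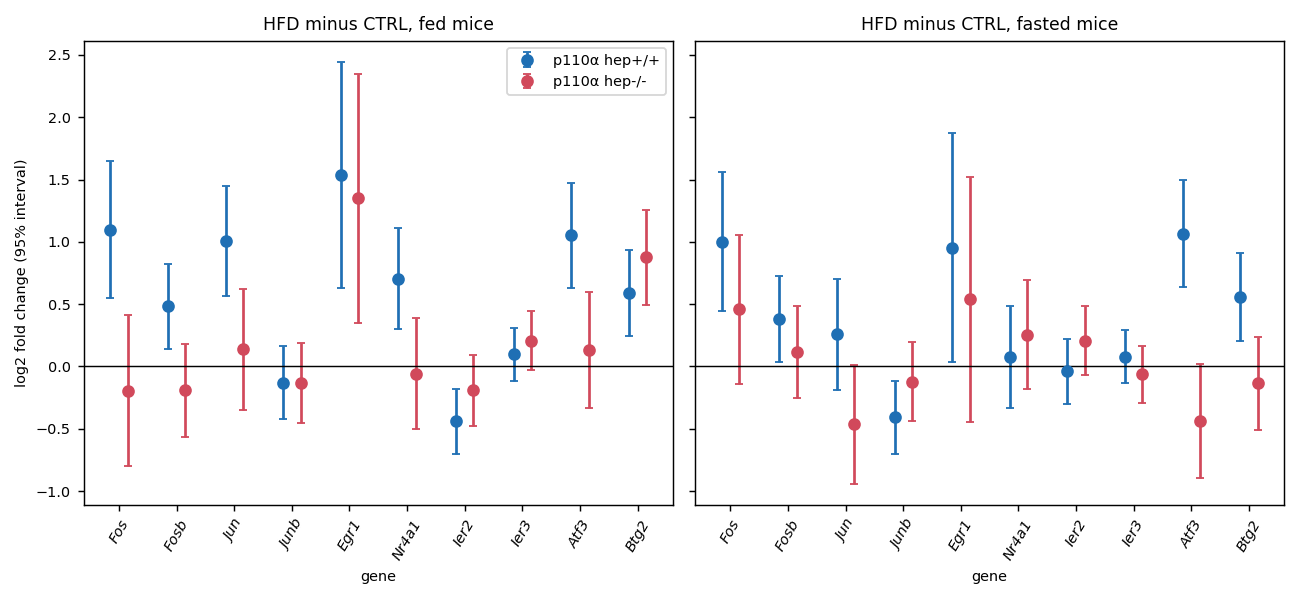
HFD minus CTRL diet for each member (horizontal axis) as log2 fold change with its 95% interval (vertical axis), in fed mice (left) and fasted mice (right), for p110α hep+/+ (blue) and p110α hep-/- (red). In fed mice the *Fos* change is 1.095 for p110α hep+/+ and -0.19 for p110α hep-/-, and in fasted mice the *Atf3* change is 1.07 and -0.44.

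Whether an effect differs between genotypes or diets was tested as an interaction. For the diet effect in fed mice, the difference between genotypes was called for 0 of the 10 members by limma, with 1.34% of all genes, while 5 members had an unadjusted p under 0.05. These were *Fos*, with a difference of -1.29 (95% interval -2.11 to -0.47, adjusted p = 0.074), *Atf3* with -0.92 (-1.55 to -0.29, adjusted p = 0.099), *Jun* with -0.87, *Nr4a1* with -0.76 and *Fosb* with -0.67. All 5 were negative, a lower diet effect in p110α hep-/- than in p110α hep+/+ mice, and none passed the adjusted threshold. The 1.34% of all genes refers to calls. Here and elsewhere, the share of all genes with an unadjusted p under 0.05 was not counted. Counts of members at that threshold are therefore not read as an excess. The fitted change in p110α hep-/- mice was -0.19 for *Fos*, -0.19 for *Fosb*, -0.06 for *Nr4a1*, 0.13 for *Atf3* and 0.14 for *Jun*. Without replicate 3 of the fed p110α hep-/- mice on HFD, limma called none of these 5 either, with differences of -1.37 for *Fos*, -0.97 for *Jun* and *Atf3*, -0.89 for *Nr4a1* and -0.68 for *Fosb* (adjusted p from 0.0504 to 0.13). The difference between 6 calls in one genotype and 1 in the other is therefore not shown gene by gene.

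For the diet effect in fasted mice, *Atf3* was called, 1 of 10 members, with 1.85% of all genes. Its difference between genotypes was -1.502 (SE 0.31, 95% interval -2.13 to -0.88, adjusted p = 0.0034), and -1.72 and -1.18 within the batches, where it was not called in either (adjusted p = 0.071 and 0.21). The diet raised *Atf3* in p110α hep+/+ mice, and its fitted change in p110α hep-/- mice was -0.44 (adjusted p = 0.24). In this interaction 3 of 6 neutrophil markers were called lower as well, and their part was not tested.

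For the fasting effect on CTRL diet, *Btg2* was called, 1 of 10 members, with 1.31% of all genes. Fasting raised it by 0.91 more in p110α hep-/- than in p110α hep+/+ mice (SE 0.25, 95% interval 0.40 to 1.41, adjusted p = 0.031), and its second probe gave 0.87 (adjusted p = 0.031). The within-batch differences were 0.90 and 0.91, called in neither batch. With all arrays, the call was lost in 4 alternatives, those with no filter, no washing correction, the slide as a block and unweighted arrays. It was also lost without replicates 1 or 3 of the fed or 3 or 4 of the fasted p110α hep+/+ mice, or without replicate 5 of the fed or 2 of the fasted p110α hep-/- mice on CTRL diet (0.85 to 0.98 over the 48 fits). *Jun* had a difference of 0.93 (adjusted p = 0.090). For the fasting effect on HFD, 0 members were called by limma, with 1.37% of all genes, and 2 had an unadjusted p under 0.05. *Jun* had the largest difference, 1.08 (95% interval 0.42 to 1.75, adjusted p = 0.058), and it was called without the array of lowest weight.

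The fasting effect was also compared between diets. In p110α hep-/- mice *Btg2* was called, 1 of 10 members, with 2.88% of all genes. Its rise after fasting was smaller on HFD, with a difference of -1.01 (SE 0.27, 95% interval -1.55 to -0.48, adjusted p = 0.012), -0.57 and -1.44 within the batches and not called in batch 1 (adjusted p = 0.36), and -0.96 without replicate 3 of the fed mice on HFD (adjusted p = 0.016). In p110α hep+/+ mice, 0 members were called by limma, with 0.893% of all genes, and 3 had an unadjusted p under 0.05. *Jun* had the largest difference there, -0.75 (adjusted p = 0.21).

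These comparisons share groups, and their values are given side by side rather than correlated. The median log2 fold change of the 10 members was 0.65 for HFD in the fed state in p110α hep+/+ and 0.04 in p110α hep-/- livers, where the median over all genes was within 0.02 of 0 in both. After fasting, the median of the members was 0.33 and 0.36 on CTRL diet and 0.14 and 0.45 on HFD, p110α hep+/+ before p110α hep-/- in each pair. *Ier3*, which protects cells from apoptosis (probe at chr17:35959528-35959587, mm9, plus strand), was called in 0 of the 18 comparisons, as was *Fosb*. By adjusted p *Ier3* came closest for genotype in fasted mice on CTRL diet (0.026, with a log2 fold change of 0.32), and *Fosb* for genotype in fasted mice on HFD (0.032, with -0.49).

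Mice of the same group differed widely in these genes. The SD around the group means was 0.83 for *Egr1*, 0.52 for *Fos*, 0.46 for *Jun*, 0.45 for *Nr4a1* and 0.43 for *Atf3*, against a median of 0.15 over all genes tested. *Egr1* stood at percentile 99.7 of all genes by this SD, *Fos* at 98.6 and *Ier3*, the steadiest member, at 75.4. The spread was not even among groups. *Nr4a1* had an SD of 0.22 in fasted p110α hep+/+ mice on CTRL diet and 0.90 in fed p110α hep-/- mice on HFD, where 1 mouse, replicate 3, reached 10.12 and the other 5 stayed at or below 8.94.

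Members also moved together from mouse to mouse. Deviations from the group mean over the 48 mice were correlated for all 45 pairs, with two-sided permutation tests within groups and Benjamini-Hochberg adjustment over the 45. Of these, 39 were positive, and the median Pearson r was 0.29, from -0.09 to 0.76. By Pearson r, 17 pairs passed an adjusted p of 0.05 and by Spearman rho also 17, with 15 passing both. All 17 Pearson pairs were positive, and 16 were positive within both washing batches. The median r over the 45 pairs was 0.09 within batch 1 and 0.31 within batch 2. Without the array of lowest weight, an alternative chosen after seeing the data, the median was 0.215, 37 of the 45 were positive and the 17 ran from 0.24 to 0.72. *Jun* with *Nr4a1* went from 0.47 to 0.24.

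*Jun* and *Atf3* were the closest pair, with r = 0.76 and rho = 0.74 (permutation p = 1e-05 for both, the smallest that the permutations can give, adjusted p = 2.3e-04 and 1.5e-04). Their r was 0.75 and 0.71 within the batches and 0.71 without the 2 mice farthest from the median of *Jun*. *Fos* and *Egr1* followed with r = 0.66 and rho = 0.64 (adjusted permutation p = 2.3e-04 and 1.5e-04), 0.72 and 0.64 within the batches, and 0.55 without the 2 farthest mice. *Fos* and *Btg2* had r = 0.65 and rho = 0.63 (adjusted permutation p = 4.5e-04 and 1.5e-04), 0.66 and 0.70 within the batches, and 0.62 without the 2 farthest mice. *Junb* and *Ier2* had r = 0.55 and rho = 0.64 (adjusted permutation p = 0.0011 and 2.3e-04), 0.46 and 0.63 within the batches, and 0.53 without the 2 farthest. *Fos* and *Jun* had r = 0.40 and rho = 0.41 (adjusted permutation p = 0.029 and 0.024), but 0.10 in batch 1 and 0.74 in batch 2.

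**Figure D4:**
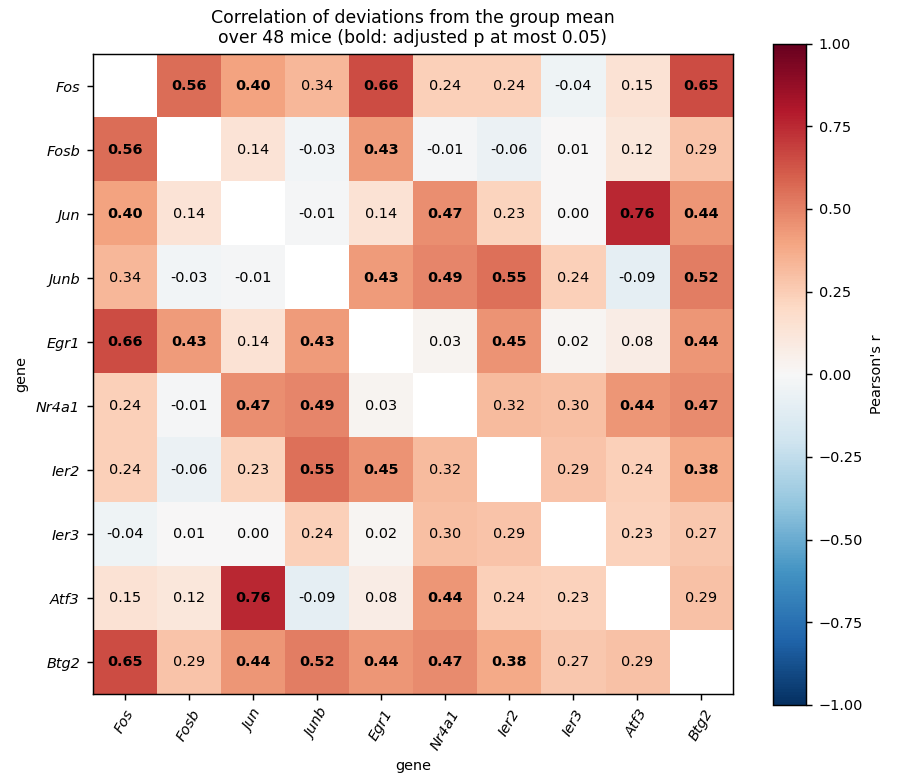
Pearson's r between each pair of members (rows and columns) over deviations of 48 mice from their group means, as colour and number, with bold for an adjusted permutation p of at most 0.05. The highest value is 0.76 for *Jun* with *Atf3*, followed by 0.66 for *Fos* with *Egr1* and 0.65 for *Fos* with *Btg2*.

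Against the mean of the other 9 members, *Btg2* had the highest r (0.73) and *Fos* the next (0.61), while *Ier3* (0.24) and *Fosb* (0.26) had the lowest. The median of the same measure over all genes was near -0.02. The mean deviation of the members had an r of 0.004 with an array's share of probes above background and -0.13 with its weight. With summed cell type markers it had an r of 0.34 for hepatocytes, 0.33 for neutrophils and 0.29 for Kupffer cells and macrophages. For stellate, bile duct and sinusoidal endothelial cells r was 0.24, 0.19 and 0.07. For T and B cells it was -0.05 and for red cells -0.11. These are descriptions over 48 mice.

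Outside the members, the genes whose level over the 48 arrays was most like the mean of the members were *Stard9* (r = 0.77), *Dusp5* (0.75), *Osmr*, *Clca3a2*, *Wasf2*, *Tmem2*, *Rassf1*, a transcript without a gene symbol, *Fosl2* and *Atp6v1e1* (0.70). By deviations from the group mean they were *Efnb2* (0.67), *Galnt15* (0.66), *Srrm4* (0.66), *Pla2g7*, a transcript without a gene symbol, *Ppm1h*, *Ifi204*, *Ms4a6c*, *Gcnt1* and *Kcnk13* (0.59). *Dusp5*, a phosphatase of the kinase ERK, and *Fosl2*, a further Fos protein, belong to the related lists described next.

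Of 8 other AP-1 and related factors, 7 were tested. After fasting, 1 was called higher in p110α hep+/+ mice on CTRL diet, 3 in p110α hep-/- mice on CTRL diet and 2 in p110α hep-/- mice on HFD, where 5.45%, 7.07% and 5.9% of all genes were called. In p110α hep+/+ mice on HFD none of the 7 was called in either direction by limma, with a median change of 0.03 and 4.71% of all genes called. *Maff*, a small Maf protein, rose by 1.33 (SE 0.15, adjusted p = 1.6e-09), 1.56 (SE 0.15, adjusted p = 2.5e-11) and 1.55 (SE 0.16, adjusted p = 1.5e-09) in the 3 comparisons with calls. *Maff* also rose on HFD in fed p110α hep+/+ mice, by 1.13 (SE 0.14, adjusted p = 1.5e-07). It differed between genotypes in its diet effect when fed (-1.09, adjusted p = 0.0023) and in its fasting effect on HFD (1.347, adjusted p = 1.3e-04). Between genotypes, 1 of the 7 was called in fed CTRL, 2 in fasted CTRL, 0 in fed HFD and 2 in fasted HFD mice. All were higher in p110α hep-/- mice, where 3.72%, 3.24%, 6.24% and 6.54% of all genes were called. *Maff* was higher by 0.78 in fed CTRL, 1.00 in fasted CTRL and 1.04 in fasted HFD mice (adjusted p = 1.7e-04, 1.1e-06 and 1.3e-06). *Fosl2* was higher in p110α hep-/- mice when fasted, by 0.64 on CTRL diet and 0.71 on HFD (adjusted p = 2.2e-06 and 7.5e-07).

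Of 9 other EGR, NR4A, KLF and MYC factors, 8 were tested. On HFD in p110α hep+/+ mice, 2 were called higher when fed and 1 when fasted (3.76% and 2.81% of all genes), with median changes of 0.08 and -0.05. Between genotypes on HFD, 2 were called lower in fed p110α hep-/- mice, and 3 higher and 1 lower in fasted ones (6.24% and 6.54%). After fasting, 2 were called lower in p110α hep+/+ mice on HFD (4.71%), 2 higher in p110α hep-/- mice on HFD (5.9%), and none in either genotype on CTRL diet by limma. *Egr2*, a relative of *Egr1*, rose on HFD in p110α hep+/+ mice, by 1.19 when fed (SE 0.15, adjusted p = 1.2e-07) and by 0.97 when fasted (SE 0.15, adjusted p = 1.7e-05). It was lower in p110α hep-/- mice on HFD, with -1.25 when fed and -1.28 when fasted (adjusted p = 3.4e-08 and 4.8e-08), and its diet effect differed between genotypes in both states (-1.26 and -0.75, adjusted p = 8.0e-04 and 0.042). *Klf6*, a zinc finger factor, rose by 0.93 on HFD in fed p110α hep+/+ mice, and its diet effect also differed between genotypes (-0.89, adjusted p = 0.0010). *Klf4* and *Klf2*, relatives of *Klf6*, rose after fasting in p110α hep-/- mice on HFD, by 1.63 and 1.13. In fasted mice on HFD, *Klf4* and *Klf10* were higher in p110α hep-/- mice, by 1.02 and 0.89 (adjusted p = 6.9e-05 and 0.019). *Nr4a2*, a relative of *Nr4a1*, had a log2 fold change of -0.69 after fasting in p110α hep+/+ mice on HFD (adjusted p = 1.1e-05).

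Of 28 other immediate early effectors and feedback inhibitors, 27 were tested. After fasting, 8 were called higher and 1 lower in p110α hep+/+ mice on CTRL diet (5.45% of all genes), and 3 and 1 in p110α hep+/+ mice on HFD (4.71%). In p110α hep-/- mice the counts were 10 higher and 2 lower on CTRL diet (7.07%), and 11 higher and 0 lower on HFD (5.9%). *Gadd45b*, a stress and growth arrest gene, rose in all 4, by 1.77 and 1.12 in p110α hep+/+ and by 2.53 and 2.19 in p110α hep-/- mice, on CTRL diet and HFD in each case. In fed mice on HFD, *Dusp1* and *Dusp2*, phosphatases of MAP kinases, were lower in p110α hep-/- mice (-1.48 and -1.15, adjusted p = 9.4e-05 and 2.6e-05), while *Socs3*, an inhibitor of cytokine signalling, was 1.504 higher (adjusted p = 1.2e-05). On HFD in fed p110α hep+/+ mice, 4 of the 27 were called higher and 2 lower, with a median change of 0.23, where 3.76% of all genes were called. Between genotypes on CTRL diet, 3 were higher and 0 lower in fed p110α hep-/- mice (3.72%), with 7 and 1 in fasted ones (3.24%). On HFD the counts were 2 and 4 when fed (6.24%), and 3 and 1 when fasted (6.54%).

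Of 11 factors upstream of immediate early genes, among them *Srf* and *Creb1*, *Crtc2*, a partner of CREB, was called higher after fasting in p110α hep+/+ mice on HFD (0.65, adjusted p = 2.0e-11, 4.71% of all genes called), and *Crem*, a relative of CREB, was called in the interaction of diet and fasting in p110α hep-/- mice (-0.64, adjusted p = 0.016, 2.88% of all genes called). Of 12 genes of the response to fasting, glucagon and glucocorticoids, 8 were called higher after fasting on CTRL diet in each genotype, and 6 higher and 1 lower on HFD in each, beside the 4.71% to 7.07% of all genes called. The metallothionein gene *Mt2* rose by 3.997 to 4.73 in the 4 comparisons. On HFD in fed p110α hep+/+ mice, 4 of the 12 were called higher (3.76% of all genes), among them *Igfbp1*, by 3.04 (SE 0.43, adjusted p = 1.4e-06).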

How the data were processed

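Liver RNA of 48 mice, 1 array each, was compared. The groups and washing batches came from the sample labels. Per the labels and methods, the authors labelled the RNA with cyanine 3 and read the arrays with Agilent Feature Extraction 10.10.1.1. The deposited scanner files hold the intensity of each spot and of its local background, not normalized. A further deposited table holds the authors' log2 values, corrected for washing and quantile normalized. It was used as an alternative.

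Control spots were left out, outlier spots set to missing and spots of a probe averaged (log2 median signal). A probe was kept if well above background on at least 5 of 6 arrays of 1 group (30793 of 56605 probes). The washing batch was removed with group means protected, and arrays were quantile normalized. A single model over the 48 arrays was fitted with limma 3.58.1 (statmod 1.5.0, R 4.3.3) with arrayWeights and eBayes. Adjusted p-values are limma's after Benjamini-Hochberg over the kept probes. The brightest probe stood for a gene, and second probes are named where they were kept. Correlations used 100000 permutations within groups. Leaving out 1 array in turn gave 48 further fits.

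Each array is 1 mouse, so p-values measure the spread between mice. No spot was saturated, median spot signals were 53 to 71 and median backgrounds 22 to 42, and precision is limited by how many arrays there are. The highest correlation between 2 arrays was 0.9976, and every array was counted as its own replicate. The mm9 positions of probes were read from the scanner files. Promoters are from RefSeq (GRCm38.p6), and the builds were not mixed.

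All 10 members are named in each comparison where they were called. Other genes named are called genes of the related lists (at most 3 per list and comparison), *Fkbp5*, *Pck1*, *Ppargc1a*, *Igfbp1* and *Pik3ca* as checks, and the 10 genes most like the members by level and the 10 by deviation. *Alb*, *S100a9*, *Mpo*, *Retnlg*, *Srf* and *Creb1* fall outside this rule and stand as examples of their lists. *Fosl1*, *Egr3* and *Arc* did not pass the filter. The members, the lists and the tests were chosen with earlier results of these data known.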

Additional observations from a re-analysis of the deposited data

Results flagged for a closer look

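In 7 of the 80 combinations of a member and a group, 1 mouse lay far from the other 5 by Dixon's ratio at its 95% critical value. Chance flags about 1 in 20 such groups. *Fos* read 8.76 in replicate 4 of fasted p110α hep-/- mice on HFD, against 6.85 to 7.52 in the other mice. *Fosb* read 6.61 in replicate 5 of fed p110α hep-/- mice on HFD, and 5.51 to 5.86 in the others. *Jun* read 12.18 in replicate 3 of the same group, and 10.31 to 10.77 in the others. *Junb* read 12.03 in replicate 6 of fed p110α hep-/- mice on CTRL diet, against 11.54 to 11.68 in the others. *Btg2* read 9.16 in replicate 2 of fasted p110α hep+/+ mice on CTRL diet, against 8.49 to 8.73, and *Ier3* read 6.37 in that same mouse, against 5.76 to 5.98. *Ier3* read 5.50 in replicate 1 of fed p110α hep+/+ mice on CTRL diet, against 5.86 to 6.05, the only low value of the 7 (from 6 mice, since *Btg2* and *Ier3* share 1).

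The effects of 2 members differed between groups by the test of the difference itself. The fasting effect on *Btg2* differed between genotypes on CTRL diet (0.91) and between diets in p110α hep-/- mice (-1.01). The first of these calls was lost in 6 of 16 alternatives and without any 1 of 6 arrays (adjusted p up to 0.059 over fits that left out 1 array), and the second was lost in batch 1 alone. The diet effect on *Atf3* in fasted mice differed between genotypes (-1.502), a call lost within each washing batch alone.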

How the results depend on the processing

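Each of the 31 called results kept its sign under all 16 alternatives, each washing batch alone among them. Of the 31, 24 lost their call in at least 1 alternative. Of these, 17 lost it only within 1 washing batch alone and 7 also in alternatives that used both batches. The alternatives were the processed signal, normexp, median scaling, 2 filters, 4 treatments of batch, slide or replicate number, no weights, fewer groups, the deposited values, the median over probes, no fold threshold and each washing batch alone. The setting with no fold threshold used the main fit, so it could change no sign and lose no call. The deposited values were prepared much as in the main fit. Both settings count in every total of 16. Within 1 batch only 3 mice a group remain. Counts of members called moved by more than 1.5 times as follows, and the cause was not tested. For the alternatives, here and in other paragraphs, the share of all genes called was not counted. The shares given with the main fit do not apply to these counts. In batch 1 alone the count was 1 for fasting in p110α hep+/+ mice on CTRL diet, 0 for fasting in p110α hep+/+ mice on HFD, 2 for fasting in p110α hep-/- mice on CTRL diet, 0, 3 and 5 for genotype in fed CTRL, fasted CTRL and fasted HFD mice, 1 for HFD in fasted p110α hep+/+ mice, and 0 for the 3 called interactions. In batch 2 alone it was 4 for fasting in p110α hep+/+ mice on HFD, 0 for fasting in p110α hep-/- mice on HFD, 0 for HFD in fed p110α hep+/+ mice, and 0 for the interactions of *Btg2* with genotype on CTRL diet and of *Atf3*. With no fold threshold it was 3 for fasting in p110α hep+/+ mice on HFD and 2, 3 and 4 for genotype in fed CTRL, fasted CTRL and fasted HFD mice.

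For fasting in p110α hep-/- mice on HFD the count of 3 became 1 with no filter, 1 with only the groups compared and 0 with no array weights. For genotype in fed mice on CTRL diet it became 2 with the processed signal, the stricter filter or the slide as a block, and in fasted mice on CTRL diet 2 with the processed signal. For HFD in fed p110α hep-/- mice it became 2 with the slide as a block or no weights. For the interaction of genotype and fasting it became 0 on CTRL diet with no filter, no washing correction, the slide as a block or no weights, and 1 on HFD with the stricter filter or the slide as a block.

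Leaving out 1 array in turn gave the following ranges of calls (arrays by label and replicate number, LWT for p110α hep+/+ and LKO for p110α hep-/-). Fasting in LWT on HFD had 1 to 2, with 2 without LWT HFD fasted 2 or LWT HFD fed 4. Fasting in LKO on HFD had 0 to 4, with 0 without LKO HFD fed 2 and 1 without LKO HFD fed 4 or LKO HFD fasted 2 or 3. Genotype in fed CTRL mice had 1 to 2, with 2 without LWT CTRL fed 1, 4 or 6, LKO CTRL fed 1, 3 or 5, LWT HFD fed 3 or 4, LKO HFD fed 2 or 5, or LKO HFD fasted 4 or 6. Genotype in fasted CTRL mice had 1 to 2, with 2 without LKO CTRL fasted 1 or 3. HFD in fed LKO mice had 1 to 2, with 2 without LKO CTRL fasted 4 or LKO HFD fed 2. Genotype by fasting on CTRL diet had 0 to 2, with 2 without LKO CTRL fasted 5 or 6 and 0 without the 6 arrays named above for *Btg2*. Genotype by fasting on HFD had 0 to 1, with 1 without LKO HFD fasted 2, LWT HFD fasted 4, LKO CTRL fasted 5, LKO HFD fed 3 or LWT HFD fed 3. Genotype by diet in fed mice had 0 to 2, with 2 without LKO HFD fed 5 or LWT HFD fed 3 and 1 without LWT HFD fed 2, LKO CTRL fed 1 or LWT CTRL fed 1. Genotype by diet in fasted mice had 1 to 2, with 2 without LKO HFD fasted 4.

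Arrays with the same replicate number were little more alike than arrays with other numbers. Arrays with the same number had correlations of deviations from -0.351 to 0.336 (median 0.012), and 39 of 168 were above 0.1. With other numbers they ran from -0.394 to 0.349 (median -0.004), and 171 of 840 were above 0.1. Whether the numbers pair mice in the design cannot be told from these values. With the replicate number as a block, *Egr1* was also called in 3 comparisons. The count was then 4 members for fasting in p110α hep-/- mice on HFD, 2 for genotype in fasted mice on CTRL diet and 2 for HFD in fed p110α hep-/- mice. The *Btg2* call for HFD in fed p110α hep+/+ mice was lost.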
